A study of Mus musculus with 14 samples.

Results

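Genes that brake or drive the entry of a cell into S phase were followed in mouse tumours attacked by cytotoxic T lymphocytes (CTLs). They are the cyclin-dependent kinase inhibitors Cdkn1a, Cdkn1b, Cdkn1c, Cdkn2a, Cdkn2b, Cdkn2c and Cdkn2d, the ubiquitin ligase subunit Skp2, and the D cyclins Ccnd1 and Ccnd2. Every non-control probe that carried one of these 10 gene names in the scanner files was taken, which gave 16 probes on 52 spots, of 41174 probes for 28478 gene symbols on the array. The question was whether the genes of growth arrest moved in tumours that CTLs had entered, and whether interferon gamma (IFNg) was needed for it.

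The tumours were grown from B16F10, a melanoma line of the C57BL/6 strain, after an injection of 1000000 cells into C57BL/6 mice. In the CTL arm, mice received 10000000 gp100-specific CD90.1+ CTLs, activated in vitro, 9 days after the tumour cells, and tumours were taken 1, 3, 5 and 7 days after this transfer. In the other two arms the same transfer was combined with an anti-IFNg antibody or with control Rat IgG, injected intraperitoneally on days 0 and 2, and tumours were taken on days 3, 5 and 7. Untreated tumour-bearing mice received no CTLs and were sampled on days 1, 3, 5 and 7. Each of the 14 arrays holds the pooled RNA of 4 tumours (CTL and untreated arms) or 3 tumours (antibody arms), and every arm has 1 array per day. The p-values and standard errors (SE) below therefore rest on how pools vary between days once the mean effects of arm and day are removed. This spread was estimated from all 4 arms together and moderated across genes, so it is not that of the compared arms alone. It is not the spread between mice either.

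The cell cycle is committed in G1. D cyclins activate CDK4 and CDK6, which phosphorylate the retinoblastoma protein and release E2F factors that switch on S phase genes. Proteins of the Ink4 family (Cdkn2a to Cdkn2d) block CDK4 and CDK6, while those of the Cip/Kip family (Cdkn1a or p21, Cdkn1b or p27, Cdkn1c or p57) bind a wider range of cyclin-CDK complexes. SKP2 is the substrate receptor of an SCF ubiquitin ligase that, with the cofactor CKS1B, marks p27 for destruction. IFNg is known as a cytokine that can slow the growth of tumour cells.

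The RefSeq promoter table (build GRCm38.p6) held 11 start windows for 7 of the 10 genes, and none for Cdkn1c, Ccnd1 and Ccnd2. In the 250 bases before each start, 3 kinds of motif were searched on both strands. These were the GAS motif TTCNNNGAA, an ISRE-like motif (GAAA, any 2 bases, GAAA), and the E2F words TTTGGCGC, TTTCCCGC, TTTCGCGC and TTTGCCGC. GAS matches stood in 7.02% of all 32851 promoter windows of this length, ISRE-like matches in 2.98% and E2F matches in 1.86%. Both Skp2 windows held a match, and the only other match in the family was an E2F word in a Cdkn2a window. The windows of Skp2 and of Cdkn1b, whose protein SKP2 targets, are shown 5′ to 3′. Capitals mark the ISRE-like match at -156 to -147 and the GAS match at -203 to -195 from the start, and the Cdkn1b window has no match to any of these motifs.
Skp2, start window (chr15:9140455-9140704, minus strand): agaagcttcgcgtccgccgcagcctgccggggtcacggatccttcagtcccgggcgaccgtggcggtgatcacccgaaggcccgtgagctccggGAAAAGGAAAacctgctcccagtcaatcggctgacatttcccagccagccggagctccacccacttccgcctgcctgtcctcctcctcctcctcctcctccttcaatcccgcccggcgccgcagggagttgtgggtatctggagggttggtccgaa
Skp2, upstream start window (chr15:9155426-9155675, minus strand): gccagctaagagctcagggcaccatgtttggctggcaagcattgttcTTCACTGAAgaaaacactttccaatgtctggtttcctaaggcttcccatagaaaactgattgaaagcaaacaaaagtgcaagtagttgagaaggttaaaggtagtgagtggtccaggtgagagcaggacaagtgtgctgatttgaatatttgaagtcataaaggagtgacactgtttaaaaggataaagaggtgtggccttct
Cdkn1b, start window (chr6:134920151-134920400, plus strand): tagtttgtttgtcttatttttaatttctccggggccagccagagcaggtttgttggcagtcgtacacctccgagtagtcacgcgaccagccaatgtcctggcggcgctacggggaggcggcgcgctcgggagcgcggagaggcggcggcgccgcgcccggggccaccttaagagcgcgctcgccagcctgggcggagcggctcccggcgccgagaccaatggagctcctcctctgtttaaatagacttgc
These matches are letters in a window and no measured binding site.

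All levels are log2 processed signal relative to the 75th percentile of the same array, so that 0 is that percentile, and probes of different genes are not ranked against each other. Between 48.9% and 59.7% of spots were well above background on each array, and the arrays correlated at 0.958 to 0.987 over probes. Melanocyte markers of the B16F10 line were clearly detected, 8 of 8 genes on every array, with a summed level on days 3 to 7 of 1540 to 1830 times the 75th percentile in CTL tumours, 1530 to 1760 with anti-IFNg, 1590 to 1630 with IgG and 1370 to 1910 in untreated tumours. None of these 8 markers passed the test in any comparison. Of 13 IFNg response genes, 12 rose in CTL tumours against untreated tumours, and 11 fell with anti-IFNg against IgG. Of all 17031 genes, 828 and 1010 did so. Slide and day coincide, so each same-day difference lies within 1 slide, and each arm kept its position on every slide, so that position and arm cannot be told apart.

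Of the 10 genes, 8 passed the filter on dim probes (well above background on at least 3 arrays). The Ink4 genes Cdkn2a, which encodes p16INK4a and p19ARF, and Cdkn2b, which encodes p15INK4b, were well above background on 0 of 14 arrays. The Cdkn2a probe (chr4:88745872-88745931 in mm8, the build of the files) is spotted 10 times, and its level ranged from -6.77 to -5.28. The level of the Cdkn2b probe (chr4:88777764-88777823) ranged from -5.72 to -4.17. No fold change is given for these 2 genes in any comparison.

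**Figure D1:**
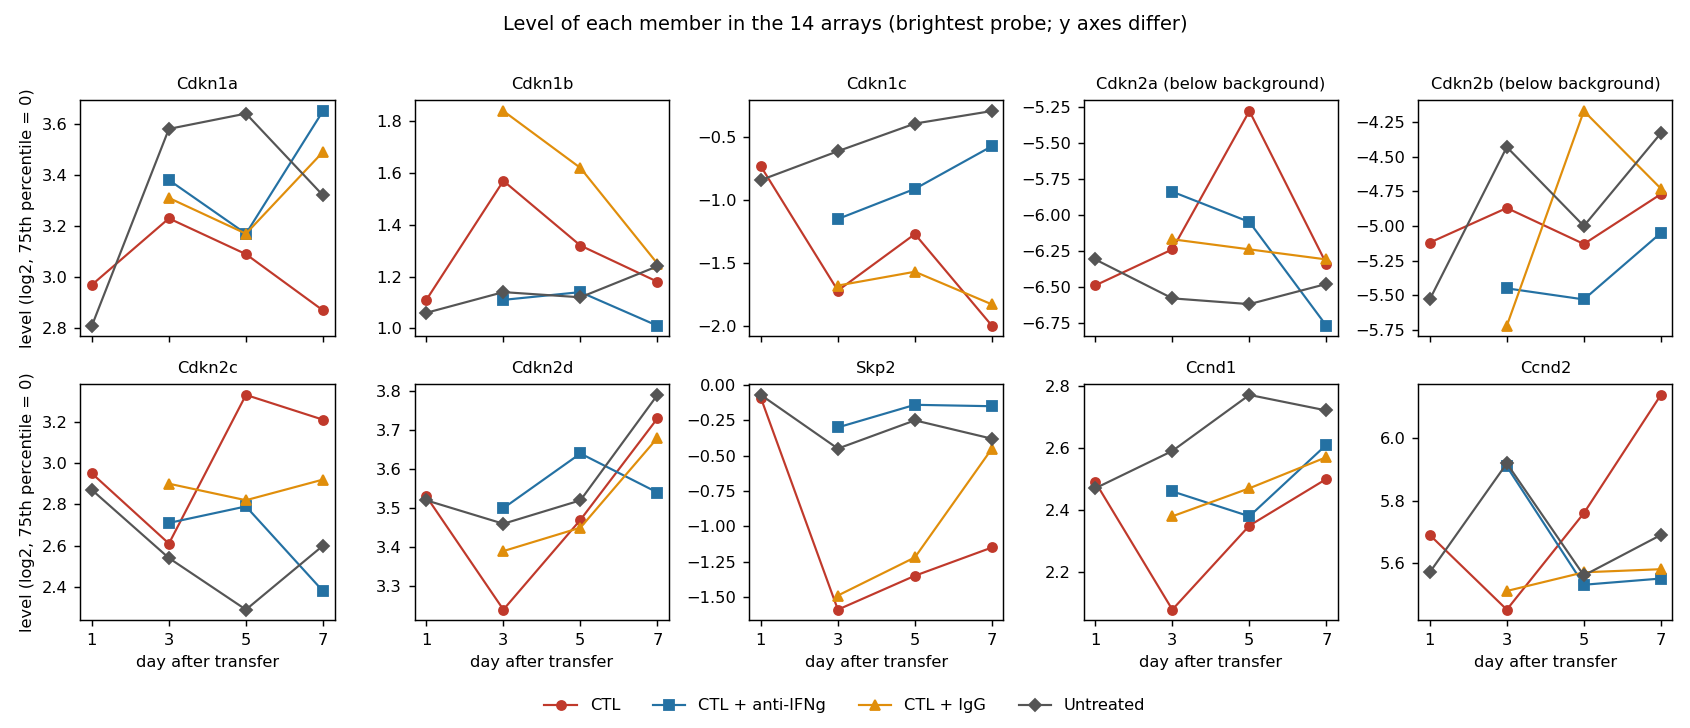
Level of each of the 10 genes by day after transfer, for the brightest probe of each gene on a log2 scale where 0 is the array's 75th percentile, with 1 point per array. Skp2 and Cdkn1c lie lower in CTL and IgG tumours than in untreated tumours on day 3, while their CTL and untreated points nearly coincide on day 1. Cdkn2a and Cdkn2b were never well above background.

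Skp2 fell with IgG against untreated tumours and was higher with anti-IFNg than with IgG. Its brighter probe (chr15:9039866-9039927 in mm8, 1 spot per array) read -0.09, -1.59, -1.35 and -1.15 in CTL tumours on days 1, 3, 5 and 7, against -0.07, -0.45, -0.25 and -0.38 in untreated tumours. On day 1 the arms were alike, and on each later day the CTL array lay below every untreated array. With anti-IFNg the levels were -0.30, -0.14 and -0.15 on days 3, 5 and 7, against -1.49, -1.22 and -0.45 with IgG. All 3 anti-IFNg arrays thus lay above all 3 IgG arrays, and the gap was smallest on day 7. How many of all genes separated in this way was not counted.

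Skp2 was higher with anti-IFNg than with IgG by 0.86 ± 0.19 (log2, SE, n = 3 days), or 1.81-fold, with an adjusted p of 0.0228 (limma, Benjamini-Hochberg over 17031 genes). The same-day differences were 1.19, 1.09 and 0.30. Against untreated tumours, IgG tumours were lower by 1.62-fold (log2 difference -0.70 ± 0.19, n = 3 days, limma adjusted p = 0.0363), with same-day differences of -1.04, -0.98 and -0.07. This call was lost in 8 of 14 alternative settings, among them all 14 arrays (adjusted p = 0.153) and leaving out day 3 (0.308) or day 5 (0.34). In CTL tumours the log2 difference from untreated tumours was -0.76 ± 0.21 over 4 days, which missed the threshold at a limma adjusted p of 0.0505. Without day 1, where the difference was -0.02, it was -1.0 ± 0.19 with an adjusted p of 0.00686, and without day 3, 5 or 7 the adjusted p was 0.302, 0.359 and 0.175. In bulk tumour RNA, fewer cells of a type and less RNA per cell cannot be told apart.

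A second Skp2 probe (chr15:9040230-9040289, 1 spot per array) also read lower in the CTL arrays of days 3 to 7 than in any untreated array. It read -1.43, -2.72, -2.47 and -2.35 in CTL tumours, against -1.28, -1.55, -1.36 and -1.60 in untreated tumours. It read -1.70, -1.54 and -1.44 with anti-IFNg, against -2.67, -2.67 and -1.72 with IgG. Both probes show the IgG array of day 7 closest to the untreated level. Tested on its own among all probes, this probe was higher with anti-IFNg than with IgG by 0.79 ± 0.20 (limma adjusted p = 0.0438).

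Averaged over days 3 to 7, the Skp2 level was -1.36 ± 0.22 in CTL tumours, -0.20 ± 0.09 with anti-IFNg, -1.05 ± 0.54 with IgG and -0.36 ± 0.10 in untreated tumours (SD, n = 3 each). The anti-IFNg and untreated arms were neighbours at the upper end, and their difference of 0.16 ± 0.19 did not pass the test (limma adjusted p = 0.98). The IgG and CTL arms were neighbours at the lower end, with a difference of 0.31 ± 0.19 (limma adjusted p = 0.379), of which day 7 gave 0.70. The antibody call rests on the fit of the 12 arrays of days 3, 5 and 7. With all 14 arrays in the fit the adjusted p was 0.0735, and without day 3 or day 5 it was 0.223 and 0.285. The call was also lost with normexp background correction (limma adjusted p = 0.152), no filter on dim probes (0.0576) and only the arms compared (0.104).

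The other subunits of the ligase were read from the list of G1 to S control genes. The cofactor Cks1b was higher with anti-IFNg than with IgG by 0.55 ± 0.13 (limma adjusted p = 0.0336) and lower with IgG than in untreated tumours, at -0.54 ± 0.13 (adjusted p = 0.0265). In CTL tumours its difference was -0.56 ± 0.15 (adjusted p = 0.0502). Skp1, Cul1 and Rbx1, the adaptor, the scaffold and the RING subunit, did not pass the test with anti-IFNg against IgG, with differences of 0.19, 0.18 and -0.13. Apart from the fit without day 1, genes of this and the other lists were not followed through the alternative settings. With all 14 arrays, 2 of 17031 genes passed between anti-IFNg and IgG. Without day 3, 5 or 7, 0 passed between CTL and untreated tumours. Both comparisons with IgG share the IgG arrays.

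Among the Cip/Kip inhibitors, Cdkn1c fell where CTLs acted with IgG and was higher again under the antibody. Its single probe (chr7:143268238-143268297, 1 spot per array) read -0.73, -1.72, -1.27 and -2.00 in CTL tumours on days 1, 3, 5 and 7, against -0.84, -0.61, -0.39 and -0.29 in untreated tumours. With anti-IFNg it read -1.15, -0.91 and -0.57 on days 3, 5 and 7, against -1.68, -1.57 and -1.83 with IgG. Neither of these antibody arms overlapped the other, and the anti-IFNg arrays lay between the IgG and the untreated arrays on each day. The share of all genes with such a separation was not counted.

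Cdkn1c was lower with IgG than in untreated tumours by 2.40-fold (log2 difference -1.26 ± 0.20, n = 3 days, limma adjusted p = 0.00373). It was higher with anti-IFNg than with IgG by 1.76-fold (0.82 ± 0.20, n = 3 days, limma adjusted p = 0.0322), with same-day differences of 0.53, 0.66 and 1.25. In CTL tumours the difference from untreated tumours was -0.90 ± 0.25 over 4 days, which missed the threshold (limma adjusted p = 0.0514). Without day 1, where it was 0.10, it was -1.24 ± 0.20 (adjusted p = 0.00362), and without day 3, 5 or 7 the adjusted p was 0.302, 0.358 and 0.175. The antibody call was lost in 7 of 14 alternative settings. It was lost with all 14 arrays (limma adjusted p = 0.12) and without day 3, 5 or 7 (0.163, 0.199 and 0.0567). It was also lost with normexp background correction (0.271), no filter on dim probes (0.077) and only the arms compared (0.0861). The IgG call was lost without day 3 or day 5 (0.0629 and 0.0677).

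Markers of endothelium moved in the same direction as Cdkn1c in the 3 comparisons below, but not between IgG and CTL tumours. There Cdkn1c differed by -0.03 ± 0.20, while the median of 7 endothelial genes was -0.86, none of which passed. Of 7 endothelial genes measured, 5 were higher with anti-IFNg than with IgG, 5 were lower with IgG than in untreated tumours, and 3 were lower in CTL than in untreated tumours. Of all 17031 genes, 1126, 1901 and 1009 passed in these directions, in that order. The summed level of 8 endothelial markers on days 3 to 7 was 1.49 to 1.58 in CTL tumours, 1.75 to 1.84 with anti-IFNg, 0.899 to 1.03 with IgG and 2.24 to 4.13 in untreated tumours. Cdh5, Kdr and Tie1 were not above background on any IgG array, and Tie1 on none of any arm. Their part in the Cdkn1c result was not tested.

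Cdkn1b, which encodes p27, did not pass the test in any comparison. Its brightest probe (chr6:134890890-134890949) is annotated in the files to a cDNA other than the reference transcript and lies downstream of the probes for that transcript, and whether it reads the same RNA was not settled. It read 1.11, 1.57, 1.32 and 1.18 in CTL tumours, against 1.06, 1.14, 1.12 and 1.24 in untreated tumours. The values were 1.11, 1.14 and 1.01 with anti-IFNg, against 1.84, 1.62 and 1.25 with IgG. On this probe the 2 antibody arms did not overlap, while on the dimmest Cdkn1b probe they did. The arms were also apart for Skp2, Cdkn1c and the brighter Cdkn2c probe, but not for the other Cdkn2c probe. With so few arrays per arm such separation carries little weight, and its share over all genes was not counted. The highest arrays were those of days 3 and 5 with IgG and of day 3 with CTLs alone.

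The Cdkn1b difference between anti-IFNg and IgG was -0.48 ± 0.14 (n = 3 days, limma adjusted p = 0.0536). That between IgG and untreated tumours was 0.40 ± 0.14 (adjusted p = 0.0769), and that between CTL and untreated tumours was 0.15 ± 0.11 (adjusted p = 0.354). A probe for the reference transcript spotted 10 times (chr6:134886778-134886836) had log2 differences of -0.37 ± 0.20 for anti-IFNg minus IgG and 0.29 ± 0.20 for IgG minus untreated. The remaining probe (chr6:134889281-134889340), well above background on 11 of 14 arrays, had -0.40 ± 0.26 and, with the other sign, -0.27 ± 0.26.

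**Figure D2:**
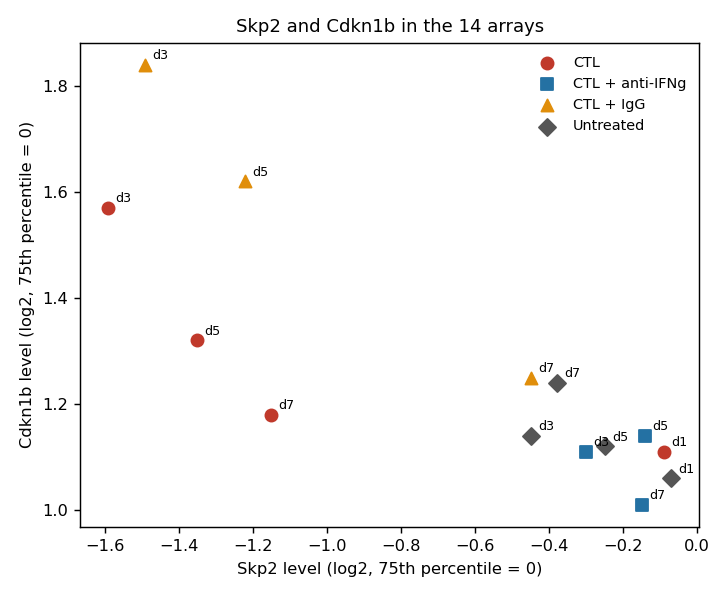
Level of Cdkn1b (vertical axis, its brightest probe, which is annotated to another cDNA) against that of Skp2 (horizontal axis) in the 14 arrays, both on a log2 scale where 0 is the array's 75th percentile, with colour and shape for the arm and the day beside each point. The arrays form a group with Skp2 at or below -1.15 (CTL days 3, 5 and 7, IgG days 3 and 5) and a group at or above -0.45, and Cdkn1b is highest in the first.

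The arrays fell into 2 groups by Skp2 level, so no correlation over all of them is given for this pair. Cdkn1b was 1.18 to 1.84 in the 5 arrays with low Skp2 and 1.01 to 1.25 in the other 9, so the ranges overlapped.

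Cdkn1a, which encodes the p53 target p21, did not pass the test in any comparison. Its probe (chr17:28828096-28828155, spotted 10 times) read 2.97, 3.23, 3.09 and 2.87 in CTL tumours, against 2.81, 3.58, 3.64 and 3.32 in untreated tumours. With anti-IFNg it read 3.38, 3.17 and 3.65, against 3.31, 3.17 and 3.49 with IgG. The CTL arrays of days 3, 5 and 7 lay below the untreated arrays of the same days, and the antibody arms overlapped. CTL minus untreated tumours gave -0.30 ± 0.16 (n = 4 days, limma adjusted p = 0.213), and anti-IFNg minus IgG gave 0.08 ± 0.17. The 10 spots of an array differed by a median SD of 0.026, well under the day-to-day spread.

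The Ink4 genes that were measured were Cdkn2c, which encodes p18INK4c, and Cdkn2d, which encodes p19INK4d. The brighter Cdkn2c probe (chr4:109159106-109159165) read 2.95, 2.61, 3.33 and 3.21 in CTL tumours, against 2.87, 2.54, 2.29 and 2.60 in untreated tumours. It was above the untreated array on each of the 4 days, by 0.08, 0.07, 1.04 and 0.60. The mean difference of 0.45 ± 0.18 did not pass (limma adjusted p = 0.106), nor did 0.40 ± 0.20 for IgG minus untreated (adjusted p = 0.206). This probe read 2.71, 2.79 and 2.38 with anti-IFNg, against 2.90, 2.82 and 2.92 with IgG, and this difference of -0.25 ± 0.20 did not pass either (adjusted p = 0.43). The other Cdkn2c probe (chr4:109159084-109159145) gave 0.43 ± 0.19 for CTL minus untreated and -0.22 ± 0.22 for anti-IFNg minus IgG. Neither passed, and its antibody arms overlapped, at 2.29, 2.52 and 2.02 with anti-IFNg against 2.43, 2.46 and 2.59 with IgG. Cdkn2d stayed between 3.24 and 3.79 on all 14 arrays, and its differences ranged from -0.09 to 0.05 among CTL or IgG minus untreated and anti-IFNg minus IgG.

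The D cyclins, the drivers that Ink4 proteins oppose, did not pass the test in any comparison that used every day. Ccnd1 (chr7:144739658-144739717, spotted 10 times) read 2.49, 2.08, 2.35 and 2.50 in CTL tumours, against 2.47, 2.59, 2.77 and 2.72 in untreated tumours. The CTL arrays of days 3 to 7 lay below the untreated arrays of the same days, by 0.51, 0.42 and 0.22 on the log2 scale. Over 4 days the difference was -0.28 ± 0.10 (limma adjusted p = 0.0857), and without day 1 it was -0.38 ± 0.10 (adjusted p = 0.0232). That was the only 1 of 14 alternative settings in which Ccnd1 passed, and without day 3, 5 or 7 the adjusted p was 0.375, 0.408 and 0.213. Ccnd1 read 2.46, 2.38 and 2.61 with anti-IFNg, against 2.38, 2.47 and 2.57 with IgG, with overlapping arms. Ccnd2 had 3 probes, and the brightest ranged from 5.45 to 6.14, with its highest value in CTL tumours on day 7. None of the differences of this probe in the 3 comparisons exceeded 0.17 in size, against standard errors of 0.16 to 0.19. Its same-day differences between CTL and untreated tumours were 0.12, -0.47, 0.20 and 0.45. The other probes gave 0.24 ± 0.14 and -0.04 ± 0.18 for CTL minus untreated, and none of the 3 probes passed.

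**Figure D3:**
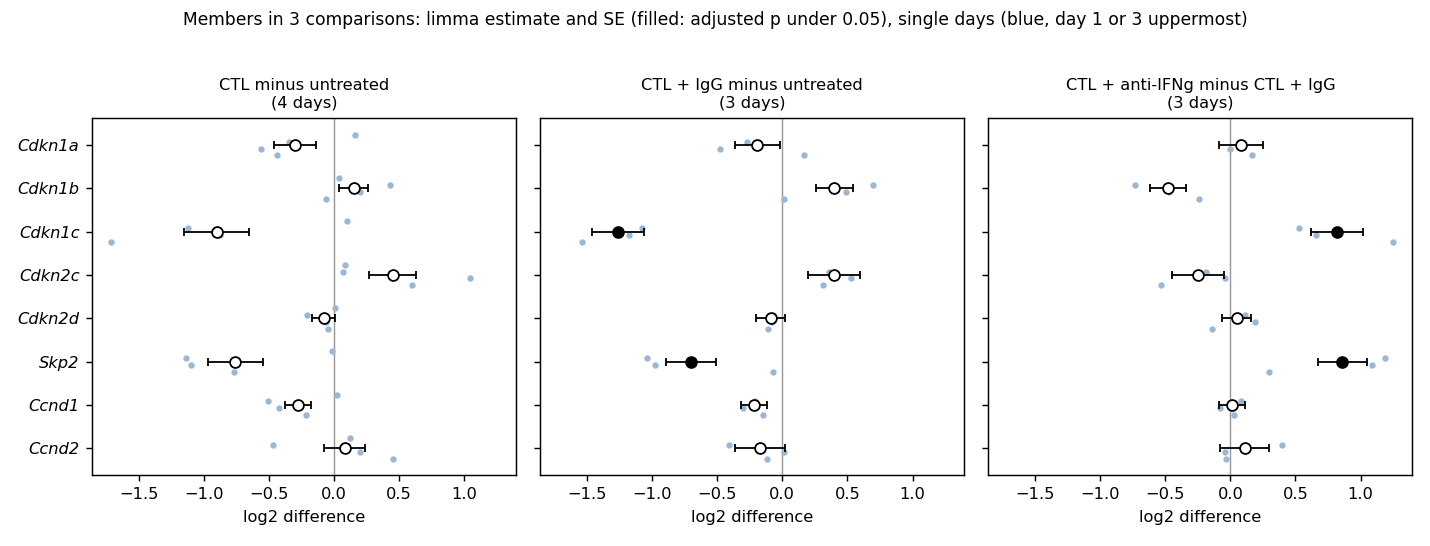
Log2 differences of the 8 measured genes in 3 comparisons, with the limma estimate and its SE in black (filled where the adjusted p was under 0.05) and the single days in blue. Skp2 and Cdkn1c are filled in the IgG minus untreated and anti-IFNg minus IgG panels, and none is filled in the CTL minus untreated panel.

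Counted over the 8 measured genes, 0 passed the test between CTL and untreated tumours by limma, where 10.8% of all genes passed. Skp2, Cdkn1c and Ccnd1 had unadjusted p-values under the threshold there (0.00554, 0.00573 and 0.022), as did Cdkn2c (0.0335), and so did 6328 of all 17031 genes. Without day 1, these first 3 of the 8 genes fell, as did 21.4% of all genes. Skp2 and Cdkn1c, 2 of the 8, fell with IgG against untreated tumours, as did 11.2% of all genes, and both rose with anti-IFNg against IgG, as did 6.61% of all genes. These 2 comparisons share the IgG arrays. None of the 8 passed between anti-IFNg and untreated tumours, where 0.159% of all genes did, or between IgG and CTL tumours, where 0.0117% did. The test of whether the CTL effect of days 3 to 7 differed from that of day 1 passed for 1.02% of all genes and for none of the 8, with -0.99 ± 0.37 for Skp2 (limma adjusted p = 0.289) and -1.34 ± 0.39 for Cdkn1c (adjusted p = 0.185). The median difference of the 8 genes was -0.18 between CTL and untreated tumours and 0.06 between anti-IFNg and IgG, against -0.08 and 0.06 over all genes.

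The other genes of G1 to S control, 29 on the array and all measured, mostly did not pass the test. In CTL against untreated tumours 3 of the 29 passed, where 10.8% of all genes did. Cdk6, a partner kinase of D cyclins, rose by 0.81 ± 0.18 (limma adjusted p = 0.0412), while the E2F factors E2f6 and E2f3 fell, at -0.55 ± 0.13 and -0.50 ± 0.12. With anti-IFNg against IgG 5 of the 29 passed, where 2136 of 17031 genes did. Cks1b, E2f3 (0.45 ± 0.11) and the growth regulator Myc (0.52 ± 0.13) were higher, and Cdk6 (-0.69 ± 0.17) and Rb1 (-0.37 ± 0.10), the retinoblastoma gene, were lower. With IgG against untreated tumours, 2 were higher (Cdk6 and Rb1) and 3 lower (Myc, E2f3 and Cks1b), where 3174 of 17031 genes passed. The median difference was -0.15 in CTL minus untreated and 0.22 in anti-IFNg minus IgG tumours. Without day 1, 2 of the 29 rose and 7 fell in CTL tumours, where 1722 of all 17031 genes rose and 3641 fell.

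**Figure D4:**
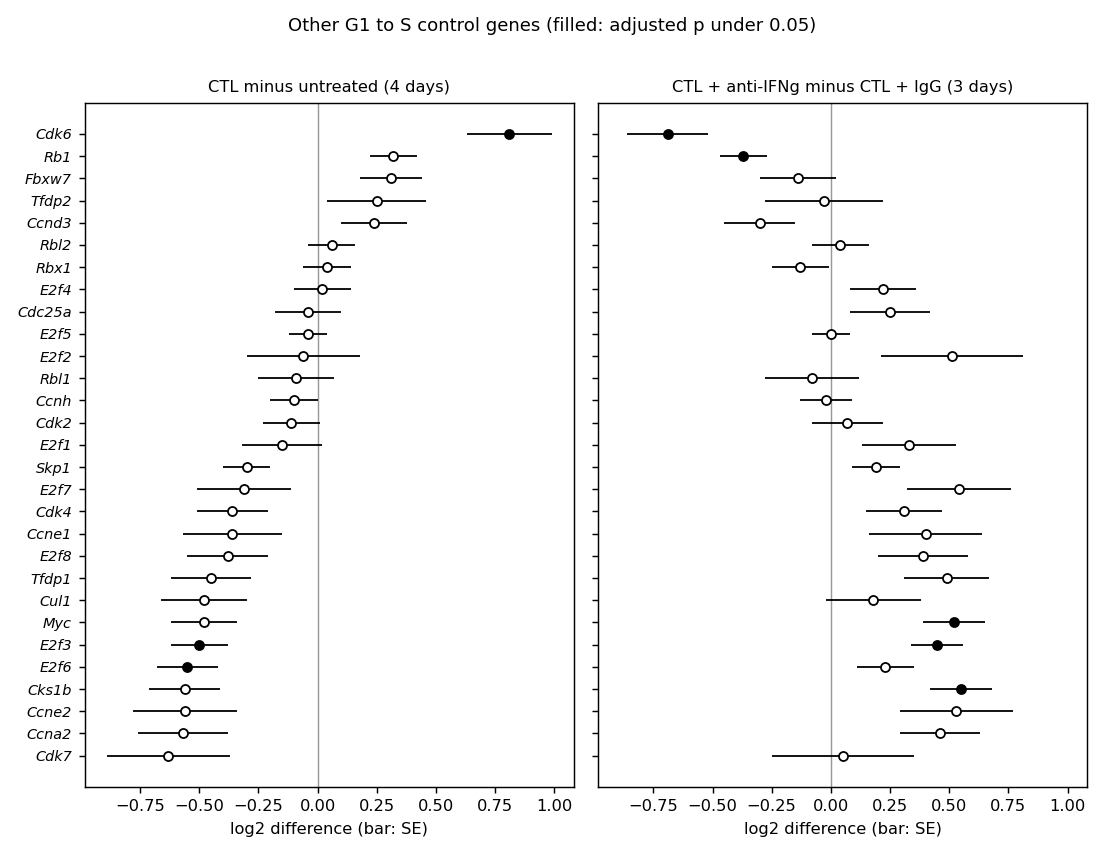
Log2 difference and SE of the 29 other G1 to S control genes, CTL minus untreated tumours on the left and anti-IFNg minus IgG tumours on the right, ordered by the left panel, with filled points where the limma adjusted p was under 0.05. Cdk6 is filled above 0 on the left and below 0 on the right, and E2f3 is filled below 0 on the left and above 0 on the right.

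Of 21 other proliferation genes, 2 fell in CTL against untreated tumours, Mki67, which encodes the cycling cell antigen Ki-67, at -0.98 ± 0.23 (limma adjusted p = 0.0421), and Rrm1, a ribonucleotide reductase subunit, at -0.69 ± 0.19. Of all 17031 genes, 1009 fell in this comparison. The median of the 21 was -0.58, and all 21 had a difference below 0. Without day 1, 20 of the 21 fell, with a median of -0.79, where 21.4% of all genes fell. With anti-IFNg against IgG, Mki67 was higher by 0.99 ± 0.14 (adjusted p = 0.00501) and the other 20 did not pass, with all 21 differences above 0 and a median of 0.38. Mki67, Top2a and Rrm1 fell with IgG against untreated tumours. Over all genes, 6.61% were higher with anti-IFNg than with IgG, and 11.2% were lower with IgG than in untreated tumours.

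Of 17 other p53 target genes, Pmaip1 and Fas, which act in cell death, rose in CTL tumours, by 2.33 ± 0.63 and 1.79 ± 0.49, and Zmat3 fell, at -0.97 ± 0.27. The same 3 genes went the other way with anti-IFNg against IgG, at -2.06 ± 0.28, -1.92 ± 0.51 and 0.86 ± 0.19, and Ei24 and Ccng1 were higher, by 0.69 ± 0.11 and 0.60 ± 0.16. Of 15 measured growth arrest genes, Gadd45b and Btg1 rose in CTL tumours, by 1.44 ± 0.31 and 0.92 ± 0.23, and Cdkn3, a phosphatase of cyclin-dependent kinases, fell at -0.65 ± 0.18. With anti-IFNg against IgG, Gadd45b (-2.06 ± 0.24), Gadd45g (-1.75 ± 0.35), Klf6 (-0.79 ± 0.20) and Btg1 (-0.81 ± 0.21) were lower, and Foxo3 was higher by 2.19 ± 0.45. With IgG against untreated tumours, Pmaip1 (3.11 ± 0.28), Fas (2.04 ± 0.51), Gadd45b (1.86 ± 0.24), Gadd45g (1.69 ± 0.35) and Btg1 (0.76 ± 0.21) were higher, and Zmat3 (-1.23 ± 0.19), Ei24 (-0.67 ± 0.11) and Cdkn2aip (-0.74 ± 0.20) were lower. Each change in this paragraph passed at a limma adjusted p under the threshold. In each list, 2 genes rose and 1 fell in CTL tumours, where 10.8% of all 17031 genes passed. With anti-IFNg against IgG 2136 of the 17031 passed, and with IgG against untreated tumours 3174 did.

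Immune markers differed between the arms as well. The summed level of 8 T cell markers on days 3 to 7 was 4.62 to 10 in CTL tumours, 1.93 to 3.25 with anti-IFNg, 3.72 to 8.08 with IgG and 1.08 to 1.44 in untreated tumours, in which Cd3g and Cd8a were never above background. That of 7 monocyte or macrophage markers was 48.5 to 68.2 in CTL tumours, 8.78 to 15.3 with anti-IFNg, 30.0 to 54.1 with IgG and 4.65 to 6.78 in untreated tumours. The part of these cells in the levels of Skp2, Cdkn1b, Cdk6 and the other genes above was not tested. Of the fibroblast, keratinocyte, B cell and erythroid markers, 1 gene (of 3 for B cells) passed between anti-IFNg and IgG, where 2136 of 17031 genes did. In CTL against untreated tumours 2 of 4 keratinocyte genes rose and 1 of 2 erythroid genes fell, where 828 of all genes rose and 1009 fell. With IgG against untreated tumours 1 of 7 fibroblast genes fell, as did 1901 of all genes. The summed fibroblast level on days 3 to 7 was 7.74 to 12.2 in CTL tumours, 3.53 to 4.76 with anti-IFNg, 3.39 to 7.7 with IgG and 5.48 to 11.8 in untreated tumours. That of keratinocyte markers was 0.924 to 1.43, 0.315 to 0.433, 0.402 to 0.563 and 0.397 to 0.711 in the same order.

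The genes whose levels followed a member most closely were named by the highest Pearson r over the 14 arrays, which share arms, days and slides. For Skp2, where the split of the arrays by its level can alone raise r, they were Tmem183a, Rpa1 and Crip2 (0.982, 0.976 and 0.975). For Cdkn1c they were Serf1, Gata2 and Enpp1, with 0.959, 0.955 and 0.954. For Cdkn1b they were Csf2ra, Sfi1 and Stat5b, with 0.950, 0.949 and 0.948. The closest gene was Uap1l1 for Cdkn2c (0.922), Tmem59l for Cdkn2d (0.903), Enkd1 for Ccnd1 (0.902), Tmx4 for Ccnd2 (0.887) and Unc13a for Cdkn1a (0.874).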

How the data were processed

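RNA pools of B16F10 tumours were hybridised to 14 Agilent 1-colour arrays on 4 slides. Per the labels, each labelling reaction took 500 ng of RNA. Images were quantified with Agilent Feature Extraction 9.5.3.1, per the file headers (9.5 in the submitters' processing notes). The deposited scanner files hold background-subtracted spot intensity on a linear scale, per the file headers. A log2 table deposited by the authors correlated with the scanner values at r = 1 and differed by a constant per array, with column medians from -3.54 to -3.14, which settled its scale and direction.

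From the intensities, log2 minus the array's 75th percentile was taken, outlier spots were left out and the spots of a probe were averaged. A probe had to be well above background on at least 3 arrays, and the probe with the highest mean stood for its gene, which gave 17031 genes. Two-sided tests were made with limma 3.58.1 under R 4.3.3 (lmFit, eBayes), with terms for the arm and the day, at an adjusted p of 0.05. CTL against untreated tumours and the interaction with day 1 used all 14 arrays, the others the 12 arrays of days 3, 5 and 7. Day, which the labels give, pairs the arrays and was the block. The deviations of same-day arrays from the means of their arms correlated at 0.129 in the median pair, and 12 of 18 pairs had r over 0.1.

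The members, the gene lists and the 12-array fits were chosen with earlier results of these data known. Genes named were the members, up to 4 list genes with the smallest p (all that passed, if 5 or fewer), and the 3 genes most like each member. On simulated data of 17031 genes, CTL against untreated recovered 62 of 100 genes changed by 0.8 (log2) and 90 of 100 changed by 2, and anti-IFNg against IgG recovered 39 and 82 of 100. False calls numbered 5 and 11, beside the genes recovered at both sizes. Far fewer genes were changed than passed in the data (1837 and 2136). The adjusted p depends on that number, so recovery in the data can differ. The simulated shift was the same on every day, with normal noise. The recovery therefore does not hold for CTL effects that differ between days. For Skp2 and Cdkn1c the day 1 differences were -0.02 and 0.10, from a single pair of arrays. Whether their CTL effect differed from that of later days did not pass the test. The array number limits the precision. Alternatives were background correction, normalization, scaling, filter, probe choice, the day term, the arrays fitted and each day left out. Probe positions are those of the files, in mm8.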

Additional observations from a re-analysis of the deposited data

How the results depend on the processing

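The number of genes past the threshold depended strongly on the arrays in the fit, and the cause was not tested beyond the number of arrays or genes each setting leaves. For CTL against untreated tumours it was 1837, against 5363 without day 1 and 0 without day 3, 5 or 7, 6 with no filter on dim probes, 488 with normexp, 1 with only the arms compared and 5 with no replicate block, that is without pairing by day. For anti-IFNg against IgG it was 2136, against 2 with all 14 arrays, 1144 with no filter, 645 with normexp, 911 with only these arms and 50 to 1376 with a day left out. For IgG against untreated tumours it was 3174, against 1706, 2005, 939 and 1056 in the same order, and 522 to 2701 with a day left out. For anti-IFNg against untreated tumours it was 27, against 0 with all 14 arrays, 0 with only these arms, 0 without the day term, 10 with no filter, 2 with normexp, 54 with the median as scale and 1 to 18 with a day left out. For IgG against CTL tumours it was 2, against 4 with all 14 arrays, 4 without the day term, 0 with normexp, 0 with only these arms, 1 with the stricter filter and 0 to 2 with a day left out. For the day 1 interaction it was 173, against 43 with normexp and 4 to 295 with a day left out, and leaving out day 1 could not be run.

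Skp2 kept its direction under all 14 alternatives between anti-IFNg and IgG (0.67 to 1.14, past the threshold in 8), between IgG and untreated tumours (-1.01 to -0.52, in 6) and between CTL and untreated tumours (-1.0 to -0.38, in 4). Cdkn1c did so too, at 0.58 to 0.96 (in 7), -1.36 to -0.92 (in 12) and -1.24 to -0.42 (in 3). Cdkn1b passed in 2 of 14 alternatives between anti-IFNg and IgG (-0.60 to -0.36) and in 1 of 14 between IgG and untreated tumours (0.14 to 0.60). Without the day term the IgG minus untreated call of Skp2 was lost (adjusted p = 0.0679). Signs turned only for small differences that never passed. For anti-IFNg minus IgG, Ccnd1 was -0.03 with quantile normalization, -0.01 in the authors' table and -0.02 to 0.06 with a day left out, Ccnd2 was -0.03 to 0.19 and Cdkn2d -0.02 to 0.15 with a day left out. For CTL minus untreated, Ccnd2 was -0.04 with the median, -0.20 with normexp and -0.05 to 0.26 with a day left out, Cdkn1b -0.05 with normexp and Cdkn2d 0.00 with quantile normalization. For IgG minus CTL, Cdkn1c was 0.10 with the median, 0.04 with quantile normalization and -0.13 to 0.11 with a day left out, Cdkn1b -0.09 with the mean of its probes and Skp2 -0.07 with normexp. Cdkn2d was also -0.04 with quantile normalization and without day 3, and Ccnd2 and Cdkn2c were each 0.10 with normexp. For anti-IFNg minus untreated, Cdkn1b was 0.01, Ccnd2 0.04 and Cdkn2d 0.06 with the median, Cdkn1a 0.07 and Cdkn2c -0.02 without day 5, and Cdkn2d 0.08 without day 7. For the interaction, Cdkn1b was -0.12 with normexp and Ccnd2 -0.25 to 0.21 with a day left out. Scaling on the median put the median of all genes at -0.19 for CTL minus untreated, against -0.08 in the main setting.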
